A study of Mus musculus with 5 samples.

Results

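The Zfp genes are the numbered mouse zinc finger protein genes, most of which encode proteins with tandem C2H2 fingers, short folds in which 2 cysteines and 2 histidines hold a zinc ion and the finger contacts DNA or RNA. The genes described here are the rows whose symbol is Zfp followed by digits, without Zfp36, that had 200 or more counts summed over all 5 libraries. This rule kept 278 of 342 such symbols, among 33894 named genes. Of the 64 symbols left out, 22 had no count in any library. The rule keeps members by their summed counts, so levels below are descriptions without a test. It does not use the difference between genotypes. The members and lists were, however, proposed with earlier results of these data known, so no list is given a test of its own.

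RNA was sequenced in bulk from haematopoietic stem cells of 8-week-old mice, with 6K cells per library. The cells were sorted from bone marrow as lineage-negative cells with Sca1 and high Kit but without CD34 and Flt3, and libraries were made by Smart-seq2, which does not keep strand. WT, with 2 libraries, is labelled wild type and no transgene is named for it. The group labelled dKO, with 3 libraries, carries Vav-cre, a Cre recombinase driven by the blood-cell promoter of Vav, together with floxed Lrp5 and Lrp6 (Lrp5 fl/fl and Lrp6 fl/fl), the co-receptors of Wnt ligands. Cre is named in the dKO group alone, so an effect of Cre and loss of the co-receptors cannot be told apart, and since no label ties a library to a mouse of its own, the p-values reflect only how far these samples spread, which may be technical.

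Many of these proteins carry a KRAB box near the N terminus, which recruits the scaffold Trim28 and, with it, the histone methyltransferase Setdb1 and HP1 proteins to silence retroelements, imprinted loci and genes. The KRAB genes have multiplied in tandem on mouse chromosomes, so neighbours can resemble each other closely. Zfp proteins without the box include conserved activators, chromatin cofactors and RNA-binding proteins, and a few act in blood cells, such as the progenitor cofactor Zfp521.

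The total of dKO replicate 2 was 16028512 counts, the smallest, and that of WT replicate 2 was 28027458, the greatest. The counts of Lrp6 were 660 and 232 in WT, beside 790, 260 and 767 in the dKO-labelled libraries. Those of Lrp5 were 7 and 32 in WT, beside 37, 2 and 71 in the dKO-labelled ones. A count over a whole gene does not show a deleted exon, so these values leave the genotype unchecked and every direction below follows the labels. All 4 sort gate genes, Cd34 and Flt3 included, and all 10 stem cell markers had counts in every library. The stem cell markers summed to 1274 and 728 CPM (counts scaled to a common library total) in WT, beside 1740 to 1809 CPM in the dKO-labelled libraries. The sort gate genes summed to 2072 and 1171 CPM in WT and to 2287, 2280 and 2177 CPM in the dKO-labelled libraries. The sums of both lists showed no overlap between groups. WT replicate 2 stood apart in 7 granulocyte progenitor genes, among them Mpo and Elane, with a summed level of 37601 CPM against 6467 CPM in WT replicate 1 and 11137 to 16268 CPM in the dKO-labelled libraries. Erythroid markers (7 genes) summed to 96.0 and 90.1 CPM in WT and to 175, 175 and 183 CPM in the dKO-labelled libraries, and megakaryocyte markers (5 genes) to 72.4 and 53.9 CPM and to 136, 127 and 101 CPM, with no overlap between groups for either list. Mast cell and basophil markers (5 genes) summed to 972 CPM in dKO replicate 2 and to 186 to 432 CPM in the other 4 libraries. The part of these markers in the results below was not tested. dKO replicate 2 stood apart in detection, with 12894 genes having a count against 14750 to 16098 in the others.

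The promoters of 4 members are shown, all with an unadjusted p under 0.05 by edgeR in the comparison of genotypes described further on. They are not the 4 with the smallest p-values, and each holds some of the searched letters. The promoters found for Zfp106, Zfp212, Zfp467, Zfp553 and Zfp295, also under that p, hold none of them. Of the 4 shown, the first 3 hold the ETS letters. The last holds the NRF1 letters and the TCF/LEF letters, a sequence that the DNA-binding partners of beta-catenin recognise. Each run covers 250 bases before to 50 after the RefSeq start, on the strand of the gene, in the build GRCm38.p6, and the capitals mark the searched letters on either strand. Zfp945 lies on chromosome 17 at chr17:22867085-22867384 (minus strand), Zfp263 at chr16:3743849-3744148 (plus strand), Zfp330 at chr8:82774096-82774395 (minus strand) and Zfp719 at chr7:43579336-43579635 (plus strand).
Zfp945: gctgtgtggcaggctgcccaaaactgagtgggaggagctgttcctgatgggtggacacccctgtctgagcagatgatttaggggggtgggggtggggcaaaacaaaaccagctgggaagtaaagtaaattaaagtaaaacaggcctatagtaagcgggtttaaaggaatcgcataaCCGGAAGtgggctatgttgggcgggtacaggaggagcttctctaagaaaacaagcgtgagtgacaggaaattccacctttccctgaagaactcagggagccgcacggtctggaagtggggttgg
Zfp263: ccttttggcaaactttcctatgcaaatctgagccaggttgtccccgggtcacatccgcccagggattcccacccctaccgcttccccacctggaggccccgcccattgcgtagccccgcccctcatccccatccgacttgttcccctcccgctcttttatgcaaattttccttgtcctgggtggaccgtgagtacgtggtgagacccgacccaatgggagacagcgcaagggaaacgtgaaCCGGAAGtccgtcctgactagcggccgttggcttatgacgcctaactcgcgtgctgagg
Zfp330: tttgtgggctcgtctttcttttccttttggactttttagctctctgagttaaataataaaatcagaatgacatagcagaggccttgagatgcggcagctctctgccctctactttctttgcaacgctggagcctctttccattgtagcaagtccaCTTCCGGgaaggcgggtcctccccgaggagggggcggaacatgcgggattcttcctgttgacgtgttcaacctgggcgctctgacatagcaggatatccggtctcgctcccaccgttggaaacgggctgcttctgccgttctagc
Zfp719: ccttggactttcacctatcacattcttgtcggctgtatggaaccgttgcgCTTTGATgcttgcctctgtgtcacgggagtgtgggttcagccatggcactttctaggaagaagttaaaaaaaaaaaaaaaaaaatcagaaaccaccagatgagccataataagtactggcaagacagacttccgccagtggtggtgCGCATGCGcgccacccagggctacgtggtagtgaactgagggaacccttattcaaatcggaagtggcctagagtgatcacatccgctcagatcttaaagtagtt

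RefSeq promoters were found for 227 of the 278 genes, giving 285 start windows of 300 bases. CCGGAAG, the ETS letters, stood in 21.1% of them, against 16.8% of 11749 windows of the genes tested here and 8.86% of all 32851 windows. The TCF/LEF letters CTTTGAA or CTTTGAT stood in 8.77% of the Zfp windows, 5.83% of those of tested genes and 8.65% of all windows. The NRF1 letters CGCATGCG were found in 4.91%, 3.81% and 1.87% of the same windows, and the ZNF143 letters ACTACAA in 5.96%, 4.07% and 3.24%. The YY1 letters AAGATGGCG stood in 3.16%, 2.87% and 1.40%. Each motif was searched on both strands, the ETS letters can share 3 bases with the YY1 letters, and a match is a description of the letters. Windows of KRAB genes held the ETS letters in 25.2% and a median of 11 CpG dinucleotides. Windows of the genes without the box held them in 16.1% with a median of 21 CpG dinucleotides, close to the median of 20 for the genes tested.

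A KRAB box was found in 158 members and not in 116, and 4 members (Zfp783, Zfp82, Zfp125 and Zfp939) had no coding transcript to search. KRAB genes encoded a median of 12 fingers (2 to 23) and the others a median of 7 (0 to 36). Zfp330 and Zfp259 are among those in which the C2H2 pattern was not found, so the symbol alone does not show that a protein holds such fingers. The SCAN domain, through which these proteins pair with each other, was found in 15 members. Of the 158 KRAB genes 106 (67.1%) had another Zfp gene as the next protein-coding gene, against 29 of 116 (25%) without the box. Chromosomes 7, 17 and 13 held 71, 37 and 25 members, and 41, 32 and 21 of these were KRAB genes. In 16 members over 20% of the transcript matched a transcript of another annotated gene at 98% identity or more, fully so for Zfp708, Zfp935 and Zfp82, so their counts are uncertain. In 19 members over 20% of the exonic bases overlapped other annotated genes, among them Zfp532 (32.8%), Zfp335 (29.2%) and Zfp106. Reads in such bases may come from either gene.

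The levels of the family were low and uneven. In TPM, which is scaled by transcript length and allows genes to be compared, the median of the 5-library mean was 8.05 over 277 members, and 120 exceeded 10. The 10 with the highest mean held 31.2% of the summed TPM. KRAB genes had a median of 7.91 TPM (quartiles 4.08 and 14.7) and a highest value of 84.2 TPM, whereas the others had a median of 9.86 TPM (quartiles 4.34 and 20.3) and a highest value of 347 TPM. Zfp664 had 2906 counts but is listed at 0 TPM in every library, and it is left out of these medians and quartiles.

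Zfp706, which encodes a small protein with 1 finger known in embryonic stem cells for the exit from self-renewal, had the highest level. It measured 420 and 346 TPM in WT and 313, 308 and 350 TPM in the dKO-labelled libraries, so the groups overlapped in TPM. Zfp422 followed with 256 and 159 TPM in WT and 212, 170 and 210 TPM in the dKO-labelled libraries. Zfp207, which encodes the kinetochore protein BuGZ, measured 173 and 145 TPM in WT and 186, 182 and 197 TPM in the dKO-labelled libraries. The order of these neighbours changed with the library. Zfp422 exceeded Zfp207 in WT and in 2 of the 3 dKO-labelled libraries, and was the lower of both in dKO replicate 2.

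Zfp330, which encodes a nucleolar protein, measured 145 and 136 TPM in WT and 134, 95.4 and 103 TPM in the dKO-labelled libraries. Zfp414 measured 127 and 88.9 TPM in WT and 102, 131 and 158 TPM in the dKO-labelled libraries, and 28% of its transcript matched the annotated gene Gm20507. Zfp263, Zfp868, Zfp637, Zfp259 and Zfp367 completed the highest 10 with means of 98.4, 84.2, 82.2, 74.7 and 72.8 TPM. The ranges of these 5 over libraries overlapped, so their order is not settled by these data. Zfp868 was the KRAB gene with the highest mean, at 83.0 and 51.4 TPM in WT and 112, 79.2 and 95.6 TPM in the dKO-labelled libraries.

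**Figure D1:**
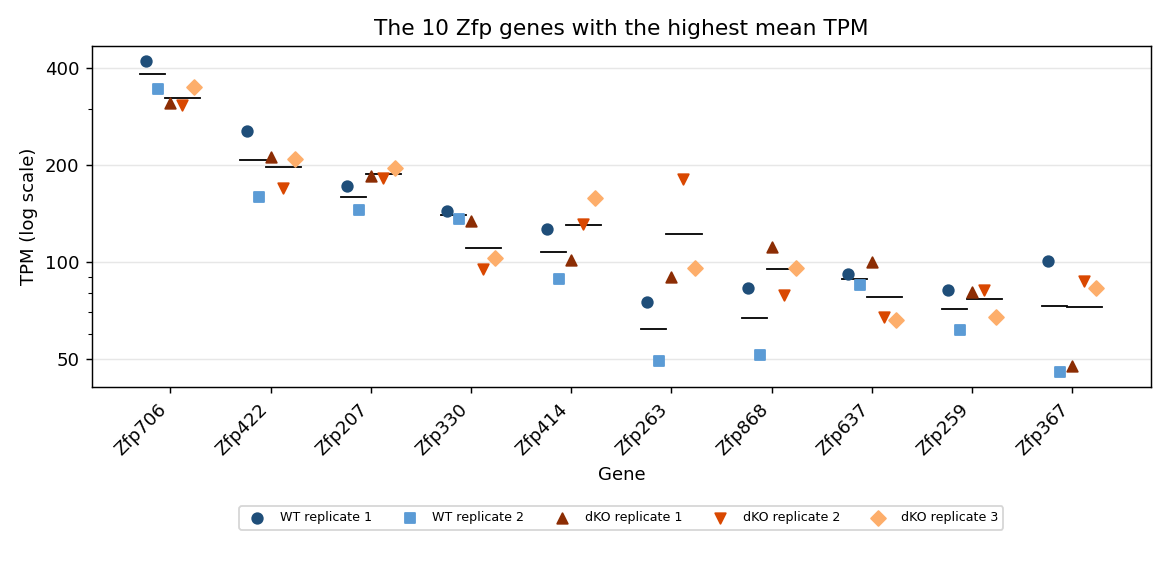
TPM per library (log scale) of the 10 Zfp genes with the highest mean TPM, with a point for each of the 2 WT and 3 dKO libraries and a bar at each group mean. Zfp706 lies above the other 9 genes in every library, and the points of the genes from Zfp263 to Zfp367 overlap.

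The summed share of these genes was lowest in WT replicate 2. The 278 genes took 0.777% and 0.614% of the counts in WT and 0.857%, 0.803% and 0.790% in the dKO-labelled libraries, or 0.695% ± 0.116 (SD, n = 2) and 0.816% ± 0.0354 (SD, n = 3). All 3 dKO-labelled libraries lay above both WT libraries, but dKO replicate 3 exceeded WT replicate 1 by little. KRAB genes alone took 0.261% and 0.200% in WT and 0.316%, 0.303% and 0.280% in the dKO-labelled libraries. In summed TPM the groups overlapped, at 0.447% and 0.339% of the total in WT and 0.496%, 0.491% and 0.445% in the dKO-labelled libraries. The library with the smallest share was the one with the most granulocyte progenitor transcripts, whose part in the result was not tested. In bulk RNA fewer cells of a type and less RNA per cell cannot be told apart.

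**Figure D2:**
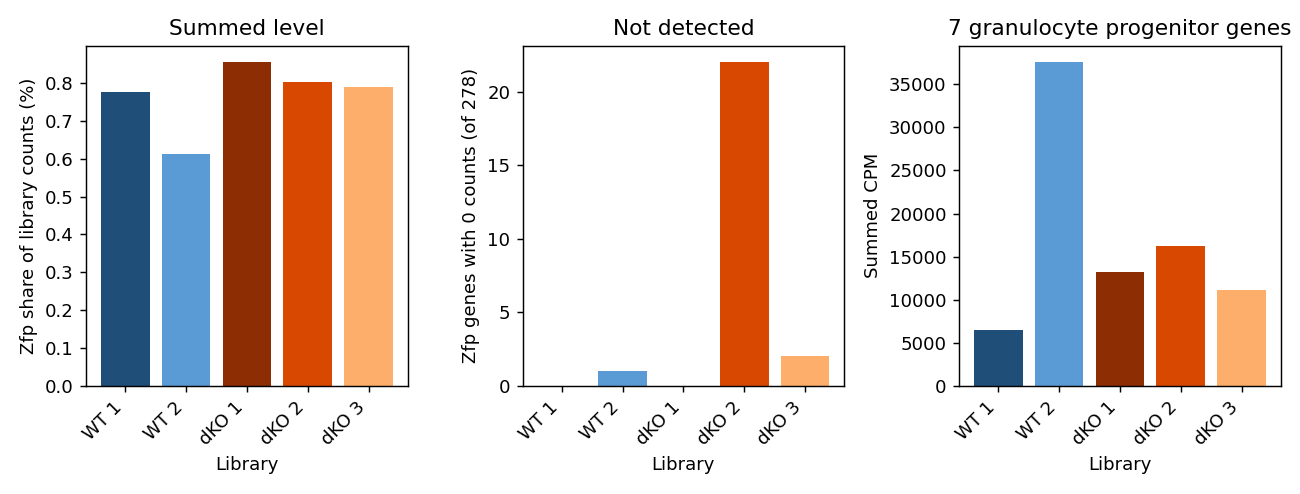
Bars per library for the share of counts held by the 278 Zfp genes (%), the number of them with 0 counts, and the summed CPM of 7 granulocyte progenitor genes. WT replicate 2 has the lowest share (0.614%) and the highest granulocyte level (37601 CPM), and dKO replicate 2 has 22 of the 278 genes at 0 counts.

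The comparison of genotypes asks which Zfp genes respond to loss of both Wnt co-receptors. All 278 members passed the filter on low counts and were tested among 13696 genes. In the quasi-likelihood test of edgeR, with Benjamini-Hochberg adjustment over all genes tested, 0 members were called higher and 0 lower, where the background over all genes was also 0% in each direction, and the smallest adjusted p among members was 0.430, for Zfp945. At an unadjusted p under 0.05 the same test gave 12 members higher and 2 lower, 5.04% of the family, against backgrounds of 4.94% higher and 5.19% lower, 10.1% of all genes in both directions. The share with small p-values was thus below that of all genes. The intervals of the members were also wide, with a median 95% interval of 2.94 log2 units against 1.98 for the 11623 tested genes with 200 or more summed counts. DESeq2 called 1 member, Zfp945, as higher and 0 as lower, where it called 1.28% and 0.729% of the genes to which it gave an adjusted p. limma-voom called 0, with 15 members higher and 2 lower at an unadjusted p under 0.05, where 5.1% and 6.75% of all genes were higher and lower in the same fit.

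The direction of the fitted values leaned upwards in the dKO-labelled libraries, a lean that was not tested. Of the 278 members 182 (65.5%) had a positive log2 fold change and 96 a negative one, against backgrounds of 52.2% and 47.8%. The median log2 fold change was 0.19, with quartiles of -0.16 and 0.67, beside 0.04 over all genes tested and 0.03 over those with 200 or more summed counts. A log2 fold change above 1 was fitted for 41 members and one below -1 for 11. Without WT replicate 2 the lean was smaller, with a median over members of 0.08 beside 0.07 over all genes and 59.0% of members positive beside 54.3% of all genes. In that fit 6 members were higher and 0 lower at an unadjusted p under 0.05, where 1.96% and 0.93% of all genes were. Without WT replicate 1 the median was 0.33 beside 0.16. Without dKO replicate 1 it was 0.12 beside 0.01, with 7 members higher and 8 lower at that p beside 4.27% and 4.59% of all genes. Without dKO replicate 2 it was 0.28 beside 0.05, with 18 members higher and 1 lower beside 5.26% and 4.48% of all genes.

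Genes with and without the KRAB box had similar medians, at 0.17 for the 158 and 0.19 for the 116, and 104 (65.8%) and 75 (64.7%) had a positive value. Small p-values were fewer among KRAB genes, where 4 were higher and 0 lower at an unadjusted p under 0.05 (2.53%), than among the others, where 8 were higher and 2 lower (8.62%), a difference that was not tested. KRAB members had a median interval width of 3.10 log2 units and the others 2.85. Without WT replicate 2 the KRAB median was 0.05 and that of the others 0.17. By mean CPM, the lowest, middle and highest of 3 level classes of the members had medians of 0.14, 0.28 and 0.18, with 54 of 92, 69 of 92 and 59 of 94 positive. The KRAB genes of chromosomes 7, 17 and 13 had medians of 0.13, 0.14 and 0.37.

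**Figure D3:**
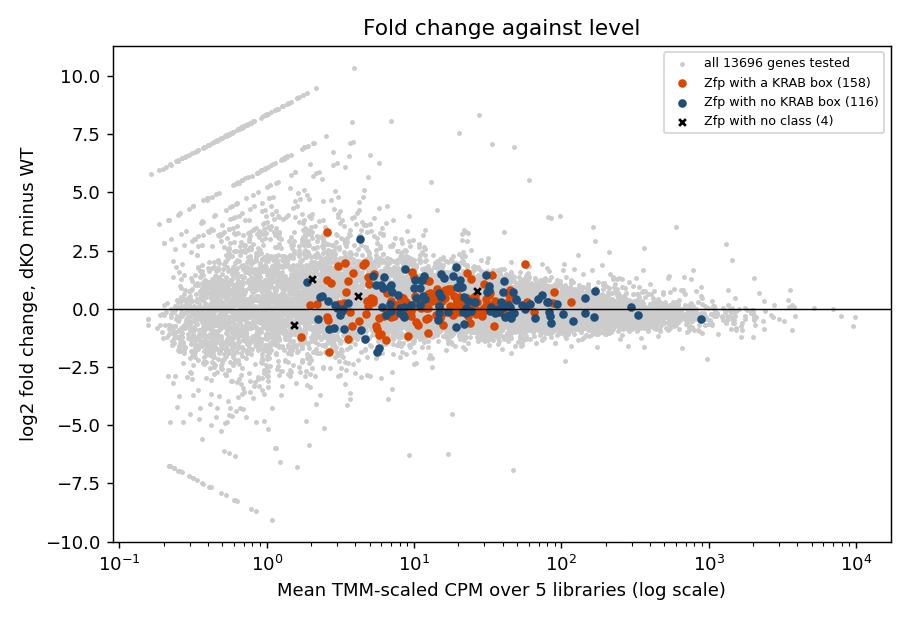
log2 fold change (dKO minus WT) against the mean TMM-scaled CPM over 5 libraries (log scale), with grey points for all 13696 genes tested and coloured points for 158 Zfp genes with a KRAB box, 116 without and 4 with no class. The Zfp points lie inside the grey cloud, with 182 of 278 above 0.

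In TMM-scaled CPM all 3 dKO-labelled libraries lay above both WT libraries for 39 members (14%), against 13.7% of all genes tested. They lay below both for 15 members (5.40%), against 15.6%. Values separated upwards about as often as in all genes, and values separated downwards were fewer. Among the 20 members with the most counts, 4 were separated upwards and 5 downwards.

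Zfp945, a KRAB gene of chromosome 17 with 18 fingers whose promoter is printed above, had the smallest p. It measured 27.6 and 14.2 CPM in WT and 50.1, 122 and 67.0 CPM in the dKO-labelled libraries. Every dKO-labelled library lay above both WT libraries, and dKO replicate 2 was the highest. The means were 20.9 ± 9.48 (SD, n = 2) and 79.8 ± 37.8 CPM (SD, n = 3), a log2 fold change of 1.93 (95% CI from 0.80 to 3.07, edgeR adjusted p = 0.430). DESeq2 gave it an adjusted p of 0.0116. Its deposited TPM gave the same order of groups, with 14.1 and 6.20 in WT and 28.3, 67.9 and 68.4 in the dKO-labelled libraries.

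Zfp263, a SCAN domain factor with 9 fingers, measured 129 and 107 CPM in WT and 180, 252 and 172 CPM in the dKO-labelled libraries. The groups did not overlap, and the log2 fold change was 0.77 (95% CI from 0.21 to 1.33, edgeR adjusted p = 0.436). Zfp295, which encodes the BTB protein Zbtb21, measured 17.4 and 28.2 CPM in WT and 36.7, 65.0 and 55.7 CPM in the dKO-labelled libraries, a log2 fold change of 1.2. Zfp719, the KRAB gene whose promoter holds TCF/LEF letters, measured 10.1 and 15.8 CPM in WT and 29.1, 42.9 and 23.7 CPM in the dKO-labelled libraries, a log2 fold change of 1.30. Both genes had adjusted p-values near that of Zfp263, at 0.437 and 0.441 by edgeR.

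Zfp358 measured 7.22 and 10.9 CPM in WT and 20.2, 28.7 and 24.5 CPM in the dKO-labelled libraries. Zfp553 measured 11.9 and 3.81 CPM in WT and 25.5, 36.9 and 18.3 CPM in the dKO-labelled libraries. Their log2 fold changes were 1.43 and 1.78, and the WT libraries of Zfp553 lay further apart than those of Zfp358. Zfp553 had a log2 fold change of 2.81 without WT replicate 1 and 1.17 without WT replicate 2. Zfp467, which acts in the choice of marrow stromal cells between bone and fat, measured 13.9 and 8.77 CPM in WT and 28.8, 29.4 and 20.9 CPM in the dKO-labelled libraries, a log2 fold change of 1.22. Zfp579 measured 5.51 and 6.21 CPM in WT and 15.3, 18 and 13.1 CPM in the dKO-labelled libraries, a log2 fold change of 1.40. These 4 genes showed no overlap between groups in CPM, and their adjusted p-values by edgeR were 0.436 to 0.469. In TPM the groups of Zfp467 overlapped by little, with 23.63 in WT replicate 1 and 23.55 in dKO replicate 1.

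Zfp407, with 22 fingers, Zfp655, a KRAB gene, Zfp212 and Zfp276 complete the higher set, at log2 fold changes of 1.48, 0.71, 1.54 and 3.01. Zfp212 and Zfp276 are given although the naming rule did not pick them, since they complete a counted set. Zfp276 measured 0.988 and 0.641 CPM in WT and 7.19, 1.39 and 11.2 CPM in the dKO-labelled libraries, a low level at which dKO replicate 2 was close to WT. Its log2 fold change was 2.39 without dKO replicate 3. Zfp212 was the 1 gene of the 14 whose groups overlapped in CPM, with 14.9 and 6.29 in WT and 27.3, 50.9 and 14.5 in the dKO-labelled libraries. Without WT replicate 1 the log2 fold change of Zfp212 was 2.29. Of these 12 genes 11 had a positive value under every setting tried, and the exception, Zfp276, had -0.44 with limma on log2(TPM + 0.1). In 11 of the 12 (91.7%) the highest library was dKO replicate 2, and in 8 of the 12 (66.7%) the lowest was WT replicate 2. The 12 were picked as higher in the dKO-labelled libraries. A highest library labelled dKO and a lowest labelled WT thus follow from the choice. The shares over all genes tested, 26.1% and 22.4%, are for genes not picked this way and are no like background. Of the 12 promoters found for the 14 genes with an unadjusted p under 0.05, 5 held the ETS letters and 1 the TCF/LEF letters. Over all Zfp windows the shares were 21.1% and 8.77%, and over those of tested genes 16.8% and 5.83%. With 12 promoters picked by p, a link of these letters to genotype was not tested.

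**Figure D4:**
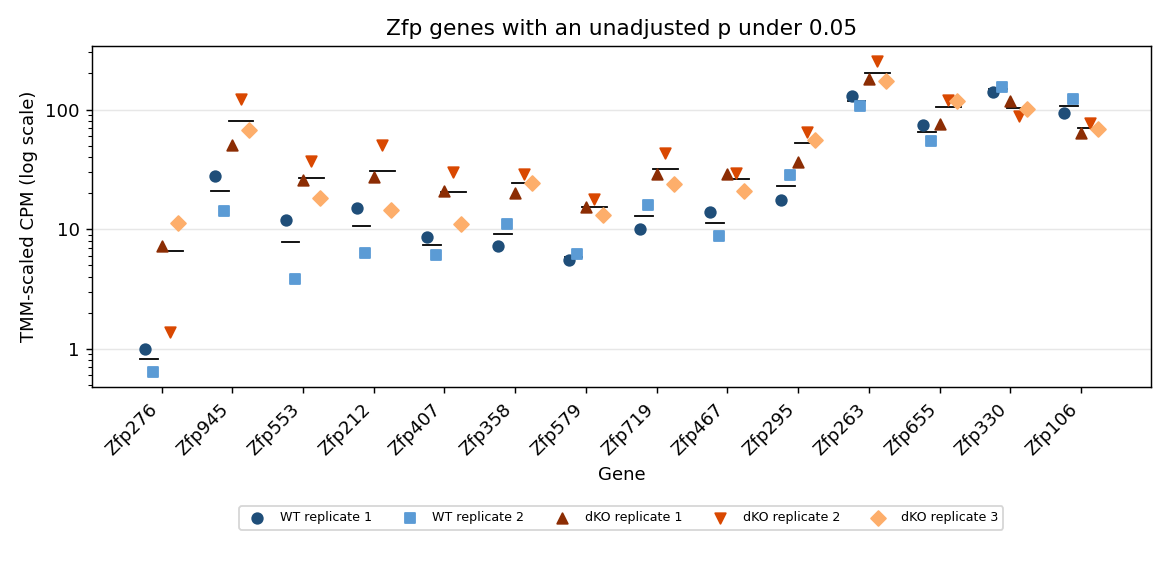
TMM-scaled CPM per library (log scale) of the 14 Zfp genes with an unadjusted p under 0.05, ordered by log2 fold change, with a bar at each group mean. In 12 genes the dKO mean is the higher and in Zfp330 and Zfp106 the lower, and only the points of Zfp212 overlap between groups.

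The lower values with the smallest p-values belonged to 7 genes without a KRAB box and to the KRAB genes Zfp777, Zfp57 and Zfp418. Zfp106, which encodes an RNA-binding protein, measured 93.1 and 122 CPM in WT and 64.0, 77.8 and 69.1 CPM in the dKO-labelled libraries, a log2 fold change of -0.62 (95% CI from -1.18 to -0.06, edgeR adjusted p = 0.468). 28.8% of its exonic bases overlap the annotated gene Gm26899, whose reads cannot be told apart without strand. Zfp330 measured 141 and 154 CPM in WT and 119, 88.6 and 101 CPM in the dKO-labelled libraries, a log2 fold change of -0.52 (95% CI from -1.02 to -0.01, edgeR adjusted p = 0.491). In CPM both genes had every dKO-labelled library below both WT libraries, and in TPM Zfp330 did as well. The groups of Zfp106 overlapped in TPM, with 21.7 and 23.4 in WT and 17.9, 22.5 and 19.2 in the dKO-labelled libraries.

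Zfp706 measured 1070 and 1021 CPM in WT and 723, 718 and 905 CPM in the dKO-labelled libraries, a log2 fold change of -0.42 (edgeR adjusted p = 0.499). Its groups did not overlap in CPM, whereas in TPM they did. Zfp259, which encodes Zpr1, a partner of translation elongation factor eEF1A, measured 192 and 195 CPM in WT and 179, 144 and 128 CPM in the dKO-labelled libraries. In deposited TPM it measured 81.9 and 61.4 in WT and 80.6, 82.0 and 67.7 in the dKO-labelled libraries, so the direction of Zfp259 turned between the count and the TPM files. Zfp777, Zfp57, Zfp692, Zfp148, Zfp418 and Zfp11 had log2 fold changes of -1.15, -1.02, -0.78, -0.30, -1.87 and -1.68, with adjusted p-values of 0.569 to 0.722 by edgeR. Zfp11 ran from -0.78 without WT replicate 1 to -3.48 without dKO replicate 1, and its groups overlapped. Zfp418 had -1.21 without WT replicate 1.

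Of 10 listed genes tied to RNA, ribosomes or mitosis 8 were members, with 5 positive and 3 negative values and a median log2 fold change of 0.07 beside 0.04 over all genes tested. Zfp106 and Zfp330 had an unadjusted p under 0.05 by edgeR, 25% of the 8 against 10.1% of all genes. No gene of the list passed the adjusted threshold. Zfp622, a 60S ribosomal subunit maturation factor, spread widely, with 78.5 and 35.5 CPM in WT and 78.1, 7.19 and 146 CPM in the dKO-labelled libraries. Its lowest and highest library were both labelled dKO. Zfp346, a double-stranded RNA binder, measured 7.18 and 5.29 CPM in WT and 21.7, 4.89 and 17.4 CPM in the dKO-labelled libraries, and Zfp830 had a log2 fold change of 0.37. dKO replicate 2 was the lowest library for both Zfp622 and Zfp346.

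Of 19 listed broad transcription and chromatin factors 17 were members, with 11 positive and 6 negative values and a median of 0.21. By edgeR 0 of them had an unadjusted p under 0.05, against 10.1% of all genes. Zfp143, a promoter activator, measured 33.4 and 34.8 CPM in WT and 23.3, 21.7 and 51.2 CPM in the dKO-labelled libraries, groups that overlapped widely. Zfp652 measured 25 and 19.6 CPM in WT and 45, 41.5 and 24.3 CPM in the dKO-labelled libraries, a log2 fold change of 0.73 (edgeR adjusted p = 0.585). Zfp532 and Zfp687, which sit in one chromatin complex with Zmynd8, had log2 fold changes of 1.31 and 0.89. Zfp532 was lowest in WT replicate 2, at 4.57 CPM, and highest in dKO replicate 2, at 32.8 CPM, and its log2 fold change was 2.19 without WT replicate 1.

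All 9 listed blood cell factors were members, with 6 positive and 3 negative values and a median of 0.08. Zfp521, a cofactor of stem and progenitor cells that binds the B cell factor Ebf1, measured 39.6 and 25.2 CPM in WT and 27.3, 41.9 and 33.4 CPM in the dKO-labelled libraries. Its log2 fold change was 0.08, and the groups overlapped. Zfp148, which binds GC-rich promoters and acts in erythroid genes, measured 101 and 88.3 CPM in WT and 75.2, 78.9 and 76.9 CPM in the dKO-labelled libraries. Its log2 fold change was -0.30 (edgeR adjusted p = 0.722). The groups of Zfp148 did not overlap in CPM, but in TPM they did, with 10.4 and 14.2 in WT and 8.06, 16.5 and 9.95 in the dKO-labelled libraries. Zfp281, a factor of pluripotent cells, had 0.44 and Zfp335, needed in T cell maturation, 1.40, with 2.09 and 3.25 CPM in WT and 5.71, 12.6 and 2.82 CPM in the dKO-labelled libraries. Without dKO replicate 2 the log2 fold change of Zfp335 was 0.69. Zfp467, described above by its role in marrow stromal cells, was the only gene of this list with an unadjusted p under 0.05 by edgeR. That is 11.1% of the list, against 10.1% of all genes.

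Among 13 listed KRAB silencers of imprints and retroelements 9 were members, and 7 of them had negative and 2 positive values, with a median of -0.24. By edgeR 0 of the 9 had an unadjusted p under 0.05, against 10.1% of all genes. Zfp57, which holds methylation at imprinted loci, measured 19.9 and 16 CPM in WT and 12.5, 9.19 and 4.82 CPM in the dKO-labelled libraries, a log2 fold change of -1.02 (95% CI from -2.36 to 0.32, edgeR adjusted p = 0.593). The groups of Zfp57 did not overlap in CPM, but in TPM they did, with 14 and 8.03 in WT and 11.1, 10.4 and 3.49 in the dKO-labelled libraries. Zfp445, its partner at imprints, measured 21.9 and 14.9 CPM in WT and 39.3, 24.8 and 10.9 CPM in the dKO-labelled libraries. The groups of Zfp445 overlapped, and its log2 fold change was 0.44. Zfp30 was the other gene with a positive value (log2 fold change 1.58, edgeR adjusted p = 0.507). It measured 6.46 and 2.36 CPM in WT and 13.5, 13.8 and 12.3 CPM in the dKO-labelled libraries. Without WT replicate 1 the log2 fold change of Zfp30 was 2.47. Zfp961 had a log2 fold change of -0.32, and Zfp809, which represses murine leukaemia virus, -0.24 with overlapping groups.

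Genes listed as KRAB corepressor machinery, a broad list of silencing factors, had narrower intervals, with a median width of 1.33 log2 units. Their median level was 76.5 CPM, against 14.4 CPM over members and 22.8 CPM over all genes tested. The part of level in the widths and in the shares below was not tested. Of 24 symbols listed 22 were tested, with 10 positive and 12 negative values and a median log2 fold change of -0.23 beside 0.04 over all genes. No gene of the list passed the adjusted threshold by edgeR. At an unadjusted p under 0.05, 1 was higher (Setdb1) and 2 lower (Pphln1 and Uhrf1), 13.6% of the list against 10.1% of all genes. The log2 fold changes of Pphln1 and Uhrf1 were -0.64 and -0.63, with adjusted p-values of 0.446 and 0.491 by edgeR. Setdb1, the histone H3 lysine 9 methyltransferase, measured 20.6 and 14.2 CPM in WT and 46.2, 57.3 and 36.6 CPM in the dKO-labelled libraries, a log2 fold change of 1.42 (95% CI from 0.55 to 2.30, edgeR adjusted p = 0.430). Trim28, the scaffold that binds the KRAB box, measured 228 and 206 CPM in WT and 159, 157 and 195 CPM in the dKO-labelled libraries, a log2 fold change of -0.35 (edgeR adjusted p = 0.583). Of the 22 genes 9 had all dKO-labelled libraries below both WT libraries (40.9%, against 15.6% of all genes) and 3 had all above (13.6%, against 13.7%). The HP1 genes Cbx1, Cbx3 and Cbx5 had log2 fold changes of -0.40, -0.46 and -0.55, with adjusted p-values of 0.553, 0.568 and 0.521 by edgeR.

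Detection of Zfp genes failed most often in dKO replicate 2. There 22 of 278 members (7.91%) had 0 counts, against 4.39% of the 11636 genes with 200 or more summed counts, and 48 members had under 10 counts. These sets are not matched in level. The median was 14.4 CPM over members and 32.3 CPM over the tested genes with 200 or more summed counts. The part of level in the difference was not tested. The other libraries had 0, 1, 0 and 2 members at 0, in the order WT replicates 1 and 2 and dKO replicates 1 and 3. KRAB genes made up 14 of the 22 and genes without the box 7. A count of 0 in dKO replicate 2 allows up to 0.187 CPM (3 counts, counting error only).

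Zfp128, a KRAB gene, had 245 and 312 counts in WT, 297 and 617 in dKO replicates 1 and 3, and 0 in dKO replicate 2. Zfp524 had 288 and 241 counts in WT, 468 and 460 in dKO replicates 1 and 3, and 0 in dKO replicate 2. Zfp251 had 498 and 210 counts in WT, 308 and 382 in dKO replicates 1 and 3, and 0 in dKO replicate 2. They were picked with their values in view, as those with the most counts elsewhere, and the other 4 libraries averaged 13.9, 13.7 and 13.2 CPM. The gap to the allowed 0.187 CPM lies within one group, so it is no difference between genotypes.

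Replicates differed widely in general. Over the 254 members detected in all 3 dKO-labelled libraries, the highest library was a median of 2.23 times the lowest, and more than 4 times the lowest for 74 members. Over the 277 members detected in both WT libraries the median ratio was 1.42, with 13 above 4 times. A group of 3 gives a wider range than a group of 2, so these medians are not compared. dKO replicate 2 was the lowest of the 5 libraries for 100 members (36.0%) and the highest for 82 (29.5%), against 33.1% and 26.1% of all genes tested. WT replicate 2 was the lowest for 71 members (25.5%) and the highest for 24 (8.63%), against 22.4% and 22.7% of all genes.

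The rule cuts the family at a low level. Just inside it, Zfp770, Zfp455 and Zfp939 had 242, 222 and 202 summed counts, and just outside it Zfp90, Zfp819 and Zfp786 had 199, 194 and 187. Zfp455 had counts of 59 and 74 in WT, beside 86, 2 and 1 in the dKO-labelled libraries. Zfp819, an embryonic KRAB silencer, had counts of 0 and 47 in WT, beside 0, 146 and 1 in the dKO-labelled libraries. With 100 or more summed counts as the rule the median log2 fold change was 0.18, and with 1000 or more it was 0.20.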

How the data were processed

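Gene counts and TPM were deposited by the authors as one table of each per library. The counts are raw whole-number counts per gene, and the deposited TPM are values scaled by transcript length and to a common total. Per the submitters' processing notes, the build was mm9 and the tools were TopHat2 2.1.1, HTSeq, RSEM 1.2.31, DESeq2, Trimmomatic and FastQC 0.11.5, without a statement of which made which table. Of 33924 rows 30 name no gene, hold 0.216% to 0.269% of the counts and were left out.

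Counts of the 2 WT and 3 dKO libraries were fitted with edgeR 4.0.16 (R 4.3.3) by the quasi-likelihood test, after filterByExpr and TMM scaling, with Benjamini-Hochberg adjustment over all 13696 genes and a threshold of 0.05. The common biological coefficient of variation was 67.9%. DESeq2 1.42.0, limma 3.58.1 (voom, and log2 of TPM plus 1 or 0.1), other scalings, filters and count minimums, a replicate block and leaving out each library were the alternatives. Library totals of 16028512 to 28027458 counts put the limit for a count of 0 (3 counts) at 0.107 to 0.187 CPM, counting error only.

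KRAB and SCAN domains were searched with profiles (E-value 0.001) built from matches in translated GENCODE M21 transcripts (GRCm38), used in place of a RefSeq protein table, and fingers by pattern. Members matched by identifier (269) or symbol (9). No mm9 coordinates are printed; promoters are from RefSeq (GRCm38.p6). The NRF1 letters are the core of a longer form that was searched first.

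Named members are the 10 with the highest mean TPM, the 10 with the smallest p in each direction, up to 4 per role list by smallest p, and the 3 genes on each side of the count minimum. From the role lists Zfp622, Zfp143, Zfp521 and Zfp809 are given as well, although this rule did not pick them. Like Zfp212 and Zfp276, they are not among the 39 named members whose signs are followed below. The members and lists were chosen with earlier results of these data known.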

Additional observations from a re-analysis of the deposited data

How the results depend on the processing

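Under the 14 alternative settings edgeR and limma called 0 members in either direction, and DESeq2 called 1 as higher (Zfp945) and 0 as lower. The median log2 fold change over members stayed positive, at 0.16 with limma-voom (-0.0015 over all genes), 0.24 with either TPM pseudocount (0.14 over all genes) and 0.08 to 0.33 when one library was left out. Of 39 named members 33 kept their sign in every setting that gave them a value; Zfp418, Zfp770, Zfp455 and Zfp939 were not tested with 5 CPM required in 2 libraries. The sign turned for Zfp637 at 0.012 with 5 CPM required in 2 libraries, for Zfp414 at -0.049 with limma-voom, and with TPM plus 1 and plus 0.1 for Zfp259 (0.11 and 0.11), Zfp367 (0.046 and 0.047) and Zfp961 (0.21 and 0.22). With one library left out, Zfp637 ran from -0.088 to 0.13, Zfp414 from -0.12 to 0.27, Zfp367 from -0.58 to 0.38 and Zfp445 from -0.039 to 0.80. The cause was not tested. At an unadjusted p under 0.05, DESeq2 gave 21 members higher and 3 lower, where 7.29% and 5.71% of all genes were, against 12 and 2 in edgeR, where 4.94% and 5.19% were.

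Replicate numbers are shared by 2 pairs of libraries, whose deviations from the group means correlated at 0.03 and 0.05. The deviations of the 2 WT libraries mirror each other, so both correlations rest on the same WT difference. They cannot show whether libraries with the same number were prepared together, and the labels give only the number. With the replicate block the median was 0.17, 0 members were called, 11 were higher and 0 lower at an unadjusted p under 0.05 (4.02% and 4.51% of all genes), and the values were 0.12 for Zfp637 and -0.14 for Zfp414. dKO replicate 3 has no partner and adds nothing to the contrast under the block.

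The median 95% interval of a member's log2 fold change was 2.94 units wide.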
